A study of Homo sapiens with 8 samples.

Results

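The genes described here are the enzymes of fatty acid synthesis, desaturation and elongation, the enzymes that activate fatty acids and join them into triglyceride, and the proteins of the lipid droplet in which triglyceride is stored. A list of 37 gene symbols was matched to the Ensembl gene IDs of the files, and all 37 matched a row, of 20897 genes in all. The choice used gene names and no expression value, but it was made with earlier results of these data known. Of the 37 genes, 33 reached at least 1 FPKM (fragments scaled to the length of the transcript and the size of the library) in at least 2 libraries and were tested. The other 4, the malic enzyme ME1, the desaturase SCD5, the monoacylglycerol lipase MGLL and the hormone-sensitive lipase LIPE, were listed at 0 in all 8 libraries. An exact 0 in these files can be a failed estimate, so these genes are described as listed at 0 and not as absent.

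PolyA RNA was sequenced from HepG2, an established line from a human hepatocellular carcinoma that is widely used as a hepatocyte model. Every well, controls included, held 1% DMSO, and all cells were treated for 18 h in medium with 1% serum. The groups were DMSO alone (n = 3), genistein (n = 3), and BMP6 at 50 ng/ml (n = 2), the bone morphogenetic protein that induces the iron hormone hepcidin. Genistein is an isoflavone of soy that binds oestrogen receptors and inhibits tyrosine kinases. The genistein dose is 10 micromolar in the series design and the same number in millimolar in the treatment protocol, so the dose is uncertain. HepG2 is 1 tumour line, so the libraries are replicate cultures of 1 genetic background, called biological replicates in the series design.

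As background, hepatocytes make fatty acids from acetyl-CoA, which comes from citrate through ACLY or from acetate through ACSS2. The acetyl-CoA is carboxylated by acetyl-CoA carboxylase and built into palmitate by FASN, after which desaturases and elongases set the chain and its double bonds. Acyl chains are activated to acyl-CoA, esterified stepwise to glycerol by the GPAT, AGPAT, lipin and DGAT enzymes, and the triglyceride is stored in droplets coated by perilipins and CIDE proteins or exported in lipoproteins. In liver this programme is controlled by SREBP1c and by the carbohydrate-response factor ChREBP, encoded by MLXIPL.

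Some libraries stood apart from the rest, so most members are given with the value of every library. The median over all genes was 0.722 FPKM in genistein 2, 3.90 in DMSO 1 and 4.14 in BMP6 1, and between 5.65 and 8.48 FPKM in the other 5 libraries. Sequencing depth is unknown, and between 8347 and 10364 genes were listed at 0 per library. Across genes, the deviation of a library from the mean of all 8 libraries was correlated with the GC content of the transcript. Spearman rho was -0.387 in BMP6 1, 0.432 in BMP6 2 and -0.349 in genistein 3, against -0.0219 to 0.263 in the other libraries. A treatment difference that tracks GC content is part of these deviations. The rho values are descriptions across 11993 genes, which share libraries and are not independent. All 10 hepatocyte markers were present, with a summed level of 182032 to 227147 FPKM in DMSO, 143474 to 223881 in genistein and 214005 to 244203 in BMP6. The sums overlapped while single markers did not all move together: after genistein TTR fell (log2 change -2.64 ± 0.52, limma adjusted p = 0.0193) and APOA1 lay below all DMSO libraries (-2.85 ± 0.95, limma adjusted p = 0.0895), whereas ALB and AHSG lay above them (limma adjusted p of 0.561 and 0.357). Of 7 adipocyte markers, ADIPOQ, LEP, PLIN1, FABP4, CIDEA and LPL were listed at 0 in all libraries. The sum of that list was therefore the level of CFD, complement factor D, at 41.1 to 95.7 FPKM in DMSO, 2.47 to 7.42 in genistein and 3.38 to 79.4 in BMP6. The macrophage list (CD163, MARCO and CSF1R at 0 of 6 genes) summed to 3250 to 4859 FPKM in DMSO, 1242 to 1955 in genistein and 1562 to 2401 in BMP6. That sum is almost all lysozyme, LYZ, which fell after genistein (log2 change -1.58 ± 0.42, limma adjusted p = 0.0448). The macrophage genes CD68 (1.18 ± 0.30, limma adjusted p = 0.0406) and CD14 (3.86 ± 1.12, limma adjusted p = 0.0604) had the opposite sign. CD14 was listed at 0, 0 and 19.3 FPKM in DMSO and at 32, 74.4 and 23.9 in genistein, so its size depends on listed zeros. The stellate cell and fibroblast list (5 of 7 genes at 0) summed to 253 to 265 FPKM in DMSO, 139 to 179 in genistein and 149 to 261 in BMP6. That sum is almost all ACTA2, and PDGFRB, the other gene of the list above 0, was at 4.91, 1.88 and 3.64 FPKM in DMSO and 19.5 and 14.3 in BMP6. The endothelial list summed to at most 1.71 FPKM. The part of these lists in the results was not tested. In bulk RNA, fewer cells with a transcript and less of it per cell cannot be told apart.

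Promoter sequence was taken for the members from RefSeq (GRCh38.p14), as the 250 bases before each start, and 31 of the 37 genes matched, with 47 starts. DGAT1, DGAT2, FASN, LPIN3, MGLL and PNPLA3 were not matched. Of the matched promoters, 4 are given here: those of 3 genes that fell after genistein and carry the NF-Y box (letters CCAAT, or ATTGG on the other strand), and that of LPIN2, the member that rose. Capitals mark the NF-Y box in the first 3 and the E-box (letters CACGTG, the core that ChREBP-type factors can bind) in LPIN2. Each is written 5′ to 3′ in the direction of the gene.
SCD, chr10:100346983-100347232, plus strand: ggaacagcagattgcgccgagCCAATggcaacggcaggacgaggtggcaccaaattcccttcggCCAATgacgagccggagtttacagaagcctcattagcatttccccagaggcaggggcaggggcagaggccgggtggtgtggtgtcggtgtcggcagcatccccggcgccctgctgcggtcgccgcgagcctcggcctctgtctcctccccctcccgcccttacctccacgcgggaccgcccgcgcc
ACLY, chr17:41919023-41919272, minus strand: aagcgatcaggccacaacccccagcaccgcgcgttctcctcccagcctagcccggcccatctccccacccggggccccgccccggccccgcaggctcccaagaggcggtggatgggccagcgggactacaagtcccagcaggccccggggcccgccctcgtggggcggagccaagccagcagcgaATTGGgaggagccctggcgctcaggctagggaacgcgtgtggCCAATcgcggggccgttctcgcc
PLIN5, chr19:4535225-4535474, minus strand: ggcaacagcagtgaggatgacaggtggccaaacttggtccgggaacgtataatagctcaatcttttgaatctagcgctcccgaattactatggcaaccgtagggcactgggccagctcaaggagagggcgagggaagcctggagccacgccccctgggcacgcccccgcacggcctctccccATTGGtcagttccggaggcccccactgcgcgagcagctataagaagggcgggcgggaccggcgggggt
LPIN2, chr18:3013145-3013394, minus strand: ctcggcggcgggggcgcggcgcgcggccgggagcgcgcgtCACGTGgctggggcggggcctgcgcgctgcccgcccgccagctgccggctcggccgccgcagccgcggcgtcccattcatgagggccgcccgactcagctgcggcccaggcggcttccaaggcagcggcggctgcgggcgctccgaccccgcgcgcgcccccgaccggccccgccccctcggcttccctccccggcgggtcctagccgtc
In SCD the NF-Y boxes begin 229 and 186 bases before the start, in ACLY 65 and 23 bases, and in PLIN5 68 bases, while the LPIN2 E-box begins 210 bases before it. Counting any start of a gene and both strands, the NF-Y box was found in 15 of the 31 members (48.4%), against 42.0% of the 9489 tested genes and 37.0% of all 27305 genes with a promoter in the table. It was found in ACLY, ACSS2, SCD, PLIN5 and CIDEB among the 7 fallen members with a promoter. The E-box was found in ELOVL5, LPIN2 and PLIN2 (9.68% of members, 11.3% of tested genes, 7.73% of all). The GC box, letters GGGCGG, was found in 27 members (87.1%, against 74.8% of tested genes and 46.2% of all) and in all 7 fallen members with a promoter. A strict sterol regulatory element, letters TCACNCCAC, was found in ACSL1, CIDEC and PNPLA2 (9.68% of members, 1.28% of tested genes, 1.09% of all), none of which passed the test. Of the matches to different motifs, 1 pair in the members' promoters shared a base. A match is not evidence of binding, and the lack of one says only that these letters are not in that window.

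**Figure D1:**
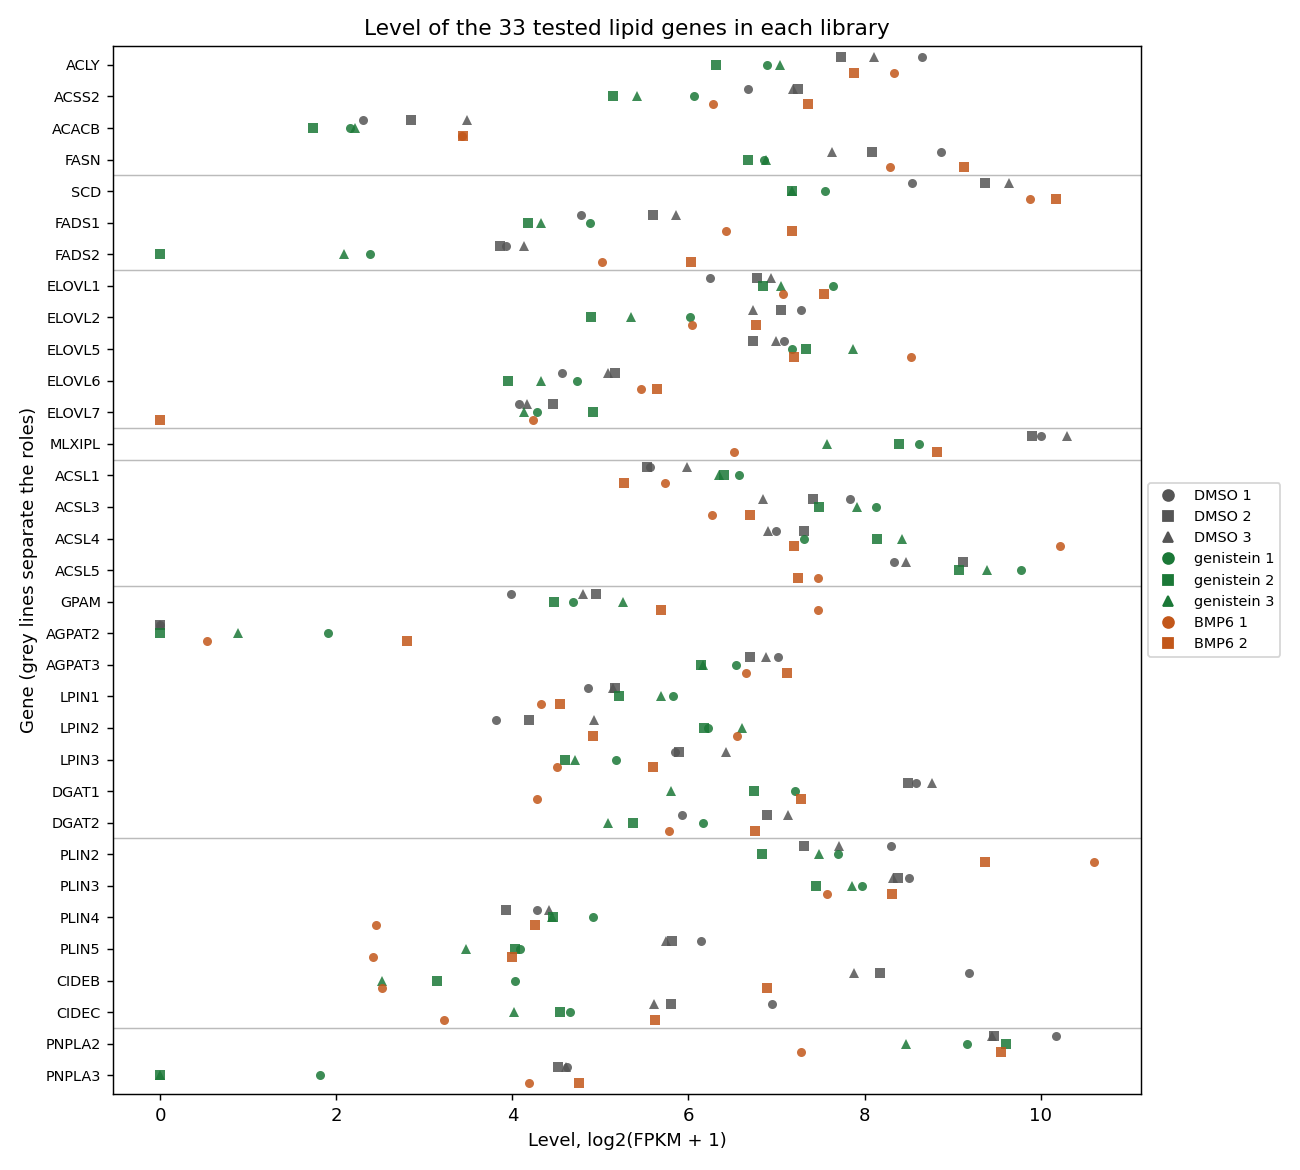
Level of each of the 33 tested genes on the log2(FPKM + 1) scale, with 1 point per library, coloured by group and shaped by replicate number, and grey lines between functional roles. The genistein points of SCD, FADS2, PLIN5, CIDEB and PNPLA3 lie below all DMSO points, those of LPIN2 lie above them, and the 2 BMP6 points are far apart for CIDEB, ACSL4, DGAT1 and MLXIPL.

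Genistein was compared with DMSO to show how the compound moved the programme as a whole. Of the 33 tested members, 8 fell and 1 rose at a limma adjusted p under 0.05, against 12.1% of all tested genes. The adjustment was over all 12661 tested genes. SCD, FADS2, CIDEB, ACLY, PLIN5, ACSS2, PNPLA3 and ELOVL2 fell, and LPIN2 rose. Among all tested genes 5.96% fell and 6.11% rose. The median log2 change was -0.64 over the members and 0.05 over all tested genes, and 21 of the 33 members had a negative change. The 3 genistein libraries lay below the 3 DMSO libraries for 16 members (20.6% of all tested genes) and above them for 6 (23.3%). For such genes an exact two-sided permutation test gives p = 0.1, the smallest that 3 libraries against 3 allow, so every call rests on limma's pooled spread. With 1 library left out, 1 member passed when that library was DMSO 2, genistein 2 or genistein 3, 2 members when it was DMSO 1 or DMSO 3, 3 members when it was genistein 1, and 14 when it was either BMP6 library, which enter the fit through the shared spread. Over all genes the same fits called 244 to 1031 without a DMSO or genistein library and 2613 and 2615 without a BMP6 library. With libraries corrected for transcript GC content and length, a correction added after seeing the data, 14 members fell and 1 rose (11.9% and 12.6% of the 11993 genes with a transcript). Those that fell were the 8 named above and FADS1, ELOVL6, MLXIPL, LPIN3, DGAT1 and DGAT2.

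**Figure D2:**
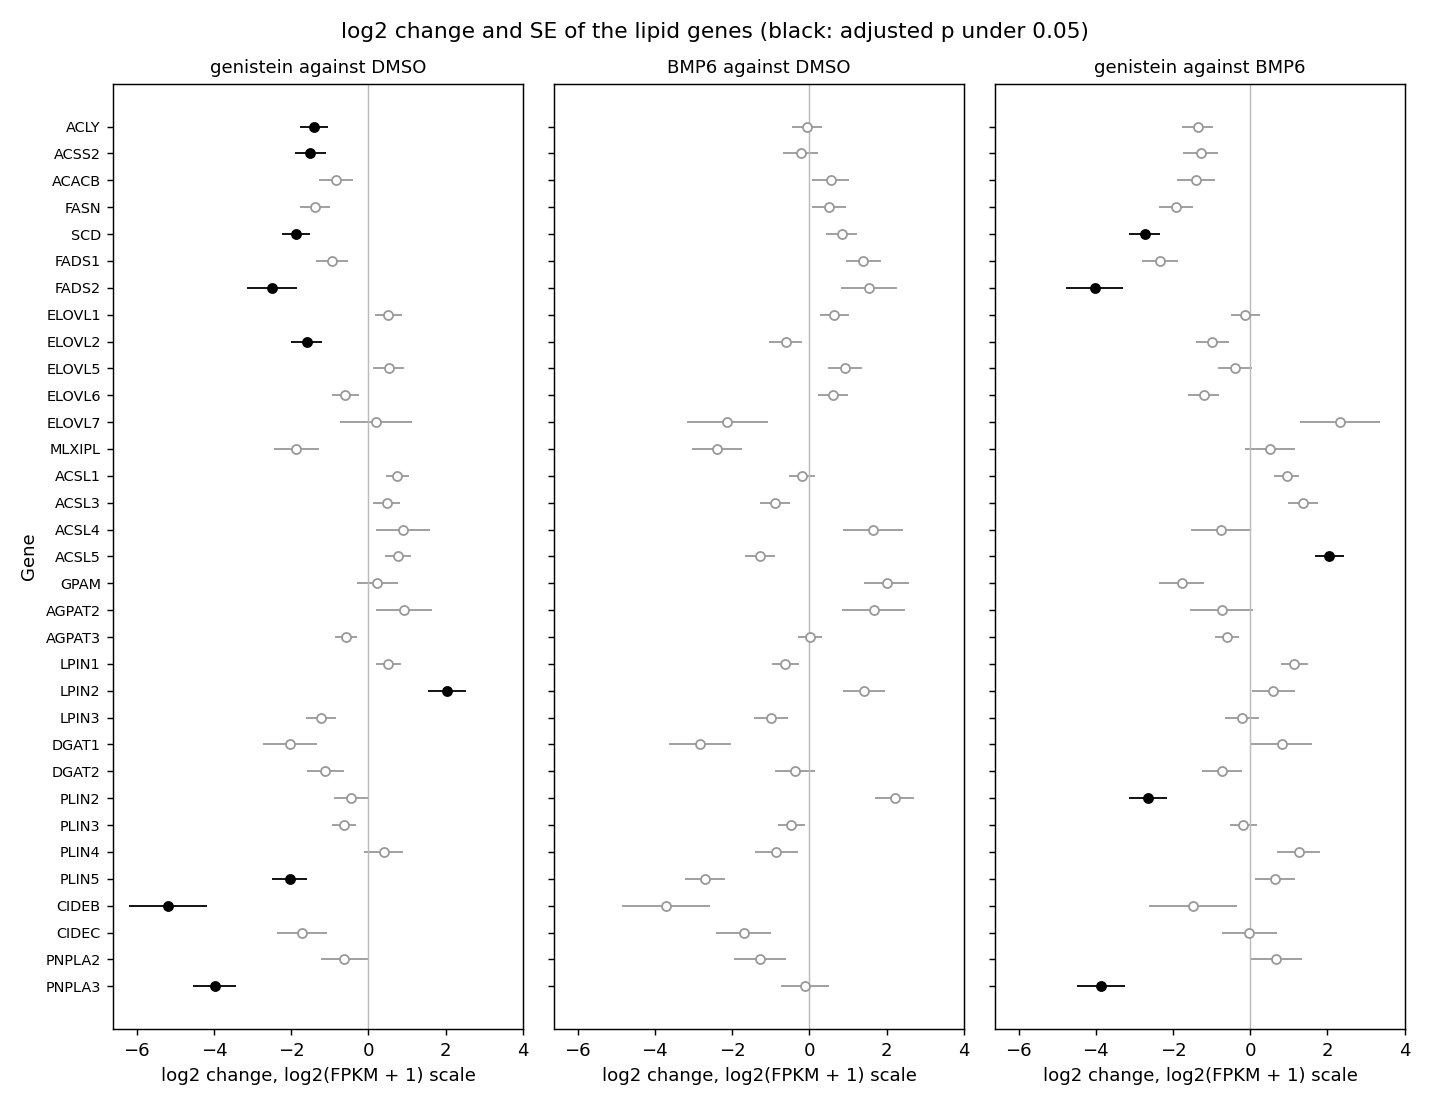
Log2 change of the 33 tested genes with its limma standard error on the log2(FPKM + 1) scale, with 1 panel for each treatment against DMSO and 1 for the treatments against each other. Black points passed a limma adjusted p of 0.05: 9 in the first panel, 0 in the second and 5 in the third.

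Both routes to acetyl-CoA were lower after genistein. ACLY, ATP-citrate lyase (ENSG00000131473, hg18 chr17:37276696-37328798), was at 402, 211 and 275 FPKM in DMSO, 118, 78.3 and 131 in genistein and 322 and 235 in BMP6. The 3 genistein values lay below all 5 others, and the log2 change from DMSO was -1.41 ± 0.36 (SE, limma adjusted p = 0.0401), a 2.66-fold fall in FPKM + 1, the scale of all fold changes here. ACSS2, the cytosolic acetyl-CoA synthetase (ENSG00000131069, chr20:32926406-32979423), was at 101, 150 and 145 FPKM in DMSO, 65.8, 34.2 and 41.6 in genistein and 76.5 and 163 in BMP6, with all genistein values below the others (log2 change -1.50 ± 0.40, limma adjusted p = 0.0472). Both calls were lost when any 1 of the DMSO or genistein libraries was left out, at limma adjusted p of up to 0.131 for ACLY and 0.154 for ACSS2.

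FASN, which builds the chain, and the carboxylase ACACB had the same sign without passing. FASN, fatty acid synthase, was at 468, 270 and 197 FPKM in DMSO, 115, 101 and 117 in genistein and 312 and 559 in BMP6. The genistein libraries lay below all others, while DMSO and BMP6 overlapped. The log2 change of FASN after genistein was -1.39 ± 0.39 (limma adjusted p = 0.055). With the GC and length correction it was -1.13 ± 0.42 (limma adjusted p = 0.0831). ACACB, the mitochondrial acetyl-CoA carboxylase whose malonyl-CoA restrains fatty acid oxidation, was low in every library, at 3.95, 6.23 and 10.2 FPKM in DMSO, 3.46, 2.32 and 3.64 in genistein and 9.73 and 9.87 in BMP6. Its log2 change after genistein was -0.85 ± 0.44 (limma adjusted p = 0.233). ACACA, the cytosolic carboxylase, was not analysed here.

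Of the 3 tested desaturases, SCD and FADS2 fell after genistein, and for all 3 both BMP6 libraries lay above all DMSO libraries. SCD, stearoyl-CoA desaturase, which makes oleate and palmitoleate (ENSG00000099194, chr10:102096762-102114577), was at 371, 661 and 797 FPKM in DMSO, 186, 144 and 144 in genistein and 943 and 1153 in BMP6. No 2 groups overlapped, with genistein lowest and BMP6 highest. The log2 change of SCD after genistein was -1.88 ± 0.36 (limma adjusted p = 0.0174), a 3.69-fold fall, and the difference between genistein and BMP6 was -2.73 ± 0.40 (limma adjusted p = 0.0208). The first call was lost without DMSO 2, DMSO 3 or any 1 genistein library (limma adjusted p of up to 0.0815), and the second without DMSO 2 or any 1 genistein library (up to 0.105).

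FADS2 and FADS1 are the delta-6 and delta-5 desaturases of polyunsaturated fatty acid synthesis. FADS2 (ENSG00000134824, chr11:61340325-61391401) was at 14.2, 13.5 and 16.6 FPKM in DMSO, 4.21, 0 and 3.24 in genistein and 31.3 and 64.3 in BMP6, again with genistein lowest and BMP6 highest. Its log2 change after genistein was -2.49 ± 0.65 (limma adjusted p = 0.0448), and the difference between genistein and BMP6 was -4.03 ± 0.73 (limma adjusted p = 0.043). The size depends on the 0 listed in genistein 2, and over the alternatives the change after genistein ran from -3.72 to -1, with the call lost at a pseudocount of 0.1. FADS1 was at 26.4, 47.3 and 56.8 FPKM in DMSO, 28.5, 17.1 and 19.1 in genistein and 84.9 and 144 in BMP6, so genistein 1 lay above DMSO 1 while both BMP6 libraries lay above all DMSO libraries. Its log2 change was -0.94 ± 0.41 after genistein (limma adjusted p = 0.166), 1.40 ± 0.46 after BMP6 (limma adjusted p = 0.175) and -2.34 ± 0.46 between genistein and BMP6 (limma adjusted p = 0.055). The spans of FADS1 and FADS2 share 562 bases in the files (chr11:61340325-61340886), and the sources used here do not say whether reads were assigned by strand. The first FADS2 call was lost without any 1 DMSO or genistein library (limma adjusted p of up to 0.125), and the second without any 1 library other than genistein 2 (up to 0.108).

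The summed level of the desaturases was 412, 722 and 870 FPKM in DMSO, 219, 161 and 166 in genistein and 1059 and 1362 in BMP6. SCD made up 84.7% to 91.6% of it in every library, so this sum follows SCD.

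The 5 elongases had changes of both signs after genistein, and their summed level was nearly flat between DMSO and genistein, at 402, 401 and 402 FPKM against 450, 347 and 439. ELOVL2, which extends long polyunsaturated chains towards docosahexaenoate (ENSG00000197977, chr6:11088981-11152610), was at 154, 132 and 105 FPKM in DMSO, 63.9, 28.7 and 39.7 in genistein and 64.6 and 108 in BMP6. The genistein libraries lay below all others, with a log2 change of -1.60 ± 0.39 (limma adjusted p = 0.0351). The call was lost without any 1 DMSO library, genistein 2 or genistein 3 (limma adjusted p of up to 0.125). As a share of the summed elongase FPKM, ELOVL2 was 32.4 ± 6.11% (SD, n = 3) in DMSO and 10.5 ± 3.22% (SD, n = 3) in genistein.

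No other elongase passed in the main fit of all 8 libraries. After genistein, ELOVL5 and ELOVL6 passed with library weights, and ELOVL6 also with the GC and length correction. ELOVL5, an elongase of polyunsaturated chains, was at 135, 105 and 126 FPKM in DMSO, 144, 161 and 232 in genistein and 369 and 146 in BMP6, above the DMSO libraries in both treatments with limma adjusted p of 0.399 and 0.299. ELOVL1, which makes very long saturated chains, was at 74.8, 109 and 122 FPKM in DMSO, 198, 114 and 132 in genistein and 134 and 185 in BMP6, and the genistein range overlapped that of DMSO (limma adjusted p = 0.336). ELOVL6, which takes palmitate to stearate and so supplies SCD, was at 22.7, 34.8 and 32.9 FPKM in DMSO, 25.6, 14.5 and 19.0 in genistein and 42.9 and 48.9 in BMP6, the same order of groups as SCD but with DMSO and genistein overlapping (limma adjusted p = 0.287). ELOVL7 was at 15.9, 21.1 and 17.0 FPKM in DMSO, 18.4, 29.1 and 16.5 in genistein and 17.8 and 0 in BMP6, so its BMP6 change rests on 1 listed 0.

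MLXIPL encodes ChREBP, the factor that induces lipogenic and glycolytic genes when glucose is plentiful. It had the highest DMSO mean of the 37 genes, at 1023, 958 and 1256 FPKM, against 392, 335 and 189 in genistein and 90.9 and 450 in BMP6. All 5 treated libraries lay below all DMSO libraries. The log2 change was -1.87 ± 0.58 after genistein (limma adjusted p = 0.0722) and -2.40 ± 0.65 after BMP6 (limma adjusted p = 0.125), neither past the threshold. With the correction for GC content and length, the values were -1.56 ± 0.24 (limma adjusted p = 0.00398) and -1.97 ± 0.26 (limma adjusted p = 0.0111), both past it. Its transcript has a GC content of 63.5%, and BMP6 1 holds much less of it than BMP6 2.

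The acyl-CoA synthetases, which activate fatty acids before esterification or oxidation, had 0 of 4 members past the threshold after genistein (1 at an unadjusted p under 0.05, against 30% of all tested genes), with a median log2 change of 0.76. ACSL5, an isoform of liver and intestine, was at 323, 556 and 354 FPKM in DMSO, 877, 536 and 669 in genistein and 177 and 151 in BMP6. Both BMP6 libraries lay below every other library. ACSL5 was higher in genistein than in BMP6 by 2.05 ± 0.38 (limma adjusted p = 0.0474), while the changes from DMSO were 0.77 ± 0.34 after genistein (limma adjusted p = 0.173) and -1.28 ± 0.38 after BMP6 (limma adjusted p = 0.149). The call was lost when any 1 of the 8 libraries was left out, at limma adjusted p of up to 0.178.

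ACSL1, the major hepatic isoform, was at 46.3, 45.3 and 62.4 FPKM in DMSO, 94.5, 83.5 and 80.7 in genistein and 52.3 and 37.4 in BMP6. Its genistein libraries lay above all others, but the log2 change of 0.75 ± 0.30 did not pass (limma adjusted p = 0.135). ACSL3, a synthetase of nascent lipid droplets, was at 227, 170 and 114 FPKM in DMSO, 279, 178 and 240 in genistein and 75.8 and 103 in BMP6. ACSL4, which prefers arachidonate, was at 126, 158 and 119 FPKM in DMSO, 158, 281 and 343 in genistein and 1192 and 146 in BMP6. The value in BMP6 1 is alone in its group, and ACSL4 has a transcript GC content of 37.4%, at the low end of the members.

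Triglyceride assembly starts with the acylation of glycerol-3-phosphate, for which GPAM encodes the mitochondrial enzyme. GPAM was at 14.8, 30.0 and 26.8 FPKM in DMSO, 24.7, 21.2 and 37.2 in genistein and 176 and 50.4 in BMP6. DMSO and genistein overlapped, whereas both BMP6 libraries lay above all others, with a log2 change of 2.00 ± 0.59 from DMSO (limma adjusted p = 0.147) and of 1.87 ± 0.43 after the GC and length correction (limma adjusted p = 0.0414). The acyltransferase AGPAT3, which makes phosphatidic acid, was at 103 to 128 FPKM in DMSO, 69.9 to 92.4 in genistein and 99.6 and 138 in BMP6 (limma adjusted p = 0.211 after genistein). Its paralog AGPAT2 was listed at 0 in the 3 DMSO libraries and in genistein 2, and reached 6.00 FPKM in BMP6 2.

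The lipins, phosphatidate phosphatases that make diacylglycerol, had a different composition in DMSO and genistein. LPIN2 (ENSG00000101577, chr18:2906994-3001945) was at 13.1, 17.2 and 29.4 FPKM in DMSO, 73.7, 71.6 and 96.3 in genistein and 92.6 and 29.2 in BMP6. The genistein libraries lay well above those of DMSO, with a log2 change of 2.03 ± 0.49 (limma adjusted p = 0.0351), a 4.07-fold rise. LPIN3 was at 56.6, 58.6 and 85.3 FPKM in DMSO, 35.1, 23.2 and 25.3 in genistein and 21.7 and 47.5 in BMP6, below DMSO in all 5 treated libraries without passing (log2 change -1.23 ± 0.39 after genistein, limma adjusted p = 0.0782). LPIN1, the isoform that also acts as a coactivator of fatty acid oxidation genes, was at 28.0, 34.9 and 34.4 FPKM in DMSO, 55.6, 36.0 and 50.4 in genistein and 19.1 and 22.3 in BMP6.

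Of the summed lipin FPKM, LPIN3 made up 56.0 ± 2.68% (SD, n = 3) in DMSO and 17.9 ± 3.32% (SD, n = 3) in genistein, while LPIN2 made up 16.2 ± 3.21% and 51.8 ± 6.10%. The 2 BMP6 libraries disagreed, with LPIN2 at 69.4% in BMP6 1 and 29.5% in BMP6 2. The summed level itself overlapped between the groups, at 97.6, 111 and 149 FPKM in DMSO and 164, 131 and 172 in genistein. The LPIN2 call was lost without any 1 DMSO or genistein library (limma adjusted p of up to 0.131) and under median-of-ratios scaling. The LPIN3 span shares 616 bases with EMILIN3, which was at 0.0033 to 10.3 FPKM.

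The last step, from diacylglycerol to triglyceride, is shared by the unrelated enzymes DGAT1 and DGAT2. DGAT1 was at 384, 360 and 433 FPKM in DMSO, 147, 106 and 54.7 in genistein and 18.5 and 154 in BMP6. All treated libraries lay below all DMSO libraries, with log2 changes of -2.03 ± 0.71 after genistein (limma adjusted p = 0.102) and -2.83 ± 0.80 after BMP6 (limma adjusted p = 0.136). After the GC and length correction the values were -1.74 ± 0.38 (limma adjusted p = 0.0147) and -2.43 ± 0.42 (limma adjusted p = 0.0218). DGAT2, the isoform tied to newly made fatty acids, was at 59.6, 118 and 139 FPKM in DMSO, 70.8, 40.3 and 33 in genistein and 53.9 and 107 in BMP6, with overlapping groups (log2 change -1.11 ± 0.47 after genistein, limma adjusted p = 0.156). With the correction its genistein change was -0.95 ± 0.25 (limma adjusted p = 0.0282). DGAT1 was the larger share of the pair in DMSO, at 79.2 ± 6.40% (SD, n = 3), and in genistein, at 67.5 ± 5.03% (SD, n = 3), and it was 25.5% and 59.0% in the BMP6 libraries.

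Among the 6 droplet coat genes, CIDEB and PLIN5 fell after genistein. CIDEB, the CIDE protein of hepatocytes, which takes part in lipoprotein lipidation and droplet fusion (ENSG00000136305, chr14:23844241-23850468), was at 582, 289 and 235 FPKM in DMSO, 15.3, 7.86 and 4.72 in genistein and 4.74 and 118 in BMP6. All 5 treated libraries lay below all DMSO libraries. CIDEB had the largest change of the 33 members after genistein, with a log2 value of -5.19 ± 1.01 (limma adjusted p = 0.0179), and its change after BMP6 was -3.71 ± 1.13 (limma adjusted p = 0.153). Leaving out DMSO 1, DMSO 2, genistein 2 or genistein 3 ended the first call (limma adjusted p of up to 0.0762). The CIDEB span overlaps NOP9 by 3930 bases and LTB4R2 by 2468 bases, and these overlaps together cover all of it. NOP9 was at 132 to 178 FPKM in DMSO and 105 to 122 in genistein (log2 change -0.49 ± 0.27, limma adjusted p = 0.259). LTB4R2 was at 7.31, 8.44 and 7.07 FPKM in DMSO, 3.18, 4.12 and 5.74 in genistein and 0.91 and 3.39 in BMP6. Its log2 change after genistein was -0.71 ± 0.46 (limma adjusted p = 0.333). Whether reads were assigned by strand is not stated here either.

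CIDEC, the CIDE protein known from adipocytes and fatty liver, was at 123, 54.7 and 47.9 FPKM in DMSO, 24.1, 22.3 and 15.2 in genistein and 8.36 and 48.2 in BMP6. The log2 change after genistein was -1.72 ± 0.64 (limma adjusted p = 0.12), smaller than that of CIDEB. CIDEB therefore went from 83.2 ± 0.771% (SD, n = 3) of the CIDE sum in DMSO to 29.5 ± 8.10% (SD, n = 3) in genistein, and was 36.2% and 71.1% in the BMP6 libraries.

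PLIN5, the perilipin that ties droplets to mitochondria in oxidative tissues (ENSG00000214456, chr19:4473546-4486208), was at 69.6, 55.1 and 52.6 FPKM in DMSO, 16.0, 15.4 and 10.1 in genistein and 4.36 and 15.0 in BMP6. All 5 treated libraries lay far below all DMSO libraries. The log2 change was -2.04 ± 0.46 after genistein (limma adjusted p = 0.0294) and -2.69 ± 0.52 after BMP6 (limma adjusted p = 0.064). After the GC and length correction the latter was -2.37 ± 0.36 (limma adjusted p = 0.0155). The genistein call was lost without any 1 DMSO or genistein library (limma adjusted p of up to 0.116).

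PLIN2, the general coat protein of hepatocyte droplets, set BMP6 apart from the other groups. It was at 315, 158 and 209 FPKM in DMSO, 206, 113 and 178 in genistein and 1557 and 660 in BMP6. DMSO and genistein overlapped (log2 change -0.44 ± 0.44, limma adjusted p = 0.536), and both BMP6 libraries lay above all others. The difference between genistein and BMP6 was -2.65 ± 0.50 (limma adjusted p = 0.0486), while that between BMP6 and DMSO was 2.21 ± 0.50 (limma adjusted p = 0.0856). The former call was lost without any 1 library other than BMP6 2 (limma adjusted p of up to 0.154). PLIN2 made up 34.7 ± 6.44% (SD, n = 3) of the summed perilipin FPKM in DMSO, 38.8 ± 3.42% (SD, n = 3) in genistein, and 88.8% and 65.4% in the BMP6 libraries.

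PLIN3, a coat protein of small nascent droplets, was at 363, 332 and 318 FPKM in DMSO, 250, 174 and 231 in genistein and 189 and 316 in BMP6 (limma adjusted p = 0.206 after genistein). PLIN4 was at 18.5, 14.2 and 20.4 FPKM in DMSO, 29.3, 21.1 and 20.8 in genistein and 4.47 and 18.1 in BMP6. Neither passed the test in any of the 3 comparisons.

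**Figure D3:**
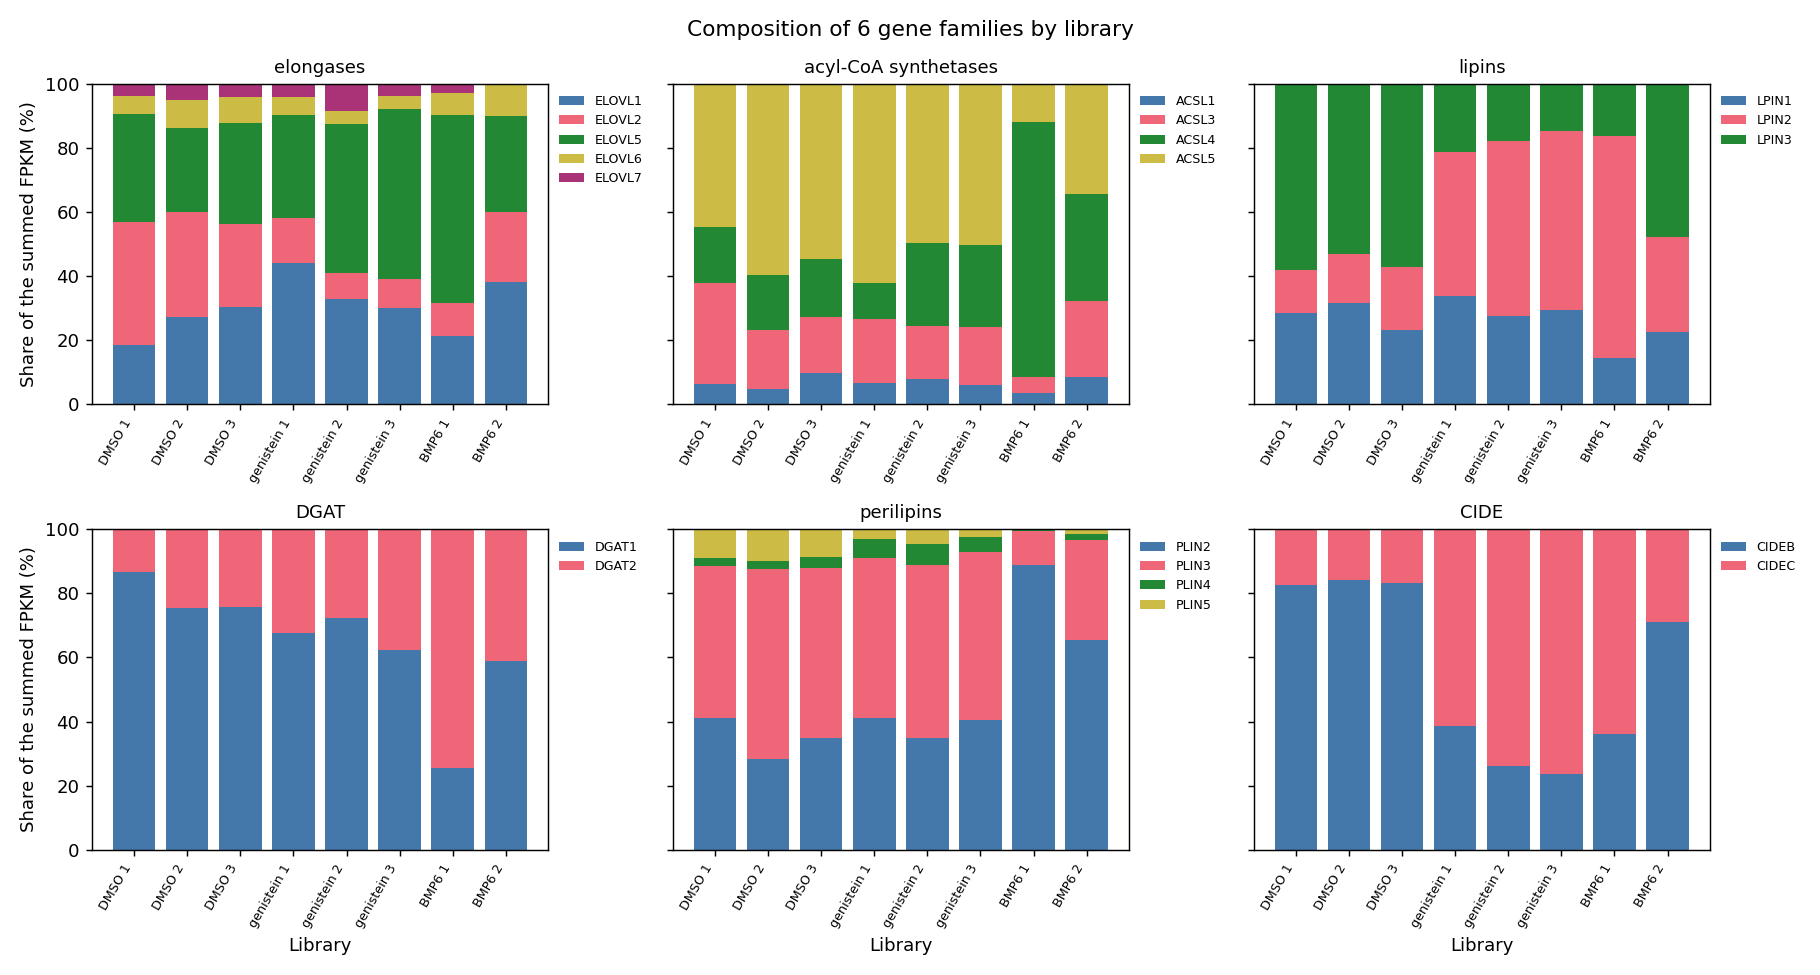
Stacked bars of the share of each gene in the summed FPKM of its family, in percent, for 6 families and 8 libraries. LPIN2 replaces LPIN3 as the largest lipin share in the 3 genistein libraries, CIDEB drops from 83.2% on average in DMSO to 29.5% in genistein, and PLIN2 reaches 88.8% and 65.4% of the perilipins in BMP6.

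Of the 2 tested lipases, PNPLA3 fell after genistein. PNPLA3, a droplet-bound lipase of hepatocytes and a known gene of fatty liver risk (ENSG00000100344, chr22:42650952-42674781), was at 23.6, 22.0 and 23.4 FPKM in DMSO, 2.53, 0 and 0 in genistein and 17.2 and 26.0 in BMP6. The genistein libraries lay below all others, and the BMP6 libraries lay around the DMSO values. PNPLA3 had the smallest limma adjusted p of the members after genistein (log2 change -3.98 ± 0.56, limma adjusted p = 0.00723), and the difference between genistein and BMP6 was -3.87 ± 0.62 (limma adjusted p = 0.0265). The fall passed in all 20 alternatives that could fit it, at limma adjusted p of up to 0.0449 with 1 library left out. Its size depends on 2 listed zeros and ran from -6.28 to -1.61. None of these alternatives sets aside both zeros, and requiring values above 0 in all 8 libraries drops PNPLA3. If both zeros are failed estimates, the fall rests on genistein 1 alone. The difference from BMP6 was lost without DMSO 2, DMSO 3, genistein 2, genistein 3 or either BMP6 library (limma adjusted p of up to 0.108). The PNPLA3 span shares 833 bases with SAMM50, which was at 55.1, 153 and 190 FPKM in DMSO and 286, 274 and 176 in genistein (log2 change 1.03 ± 0.50, limma adjusted p = 0.208).

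PNPLA2, adipose triglyceride lipase, which takes the first step of triglyceride breakdown, was at 1153, 707 and 699 FPKM in DMSO, 572, 777 and 355 in genistein and 154 and 751 in BMP6. The groups overlapped, and no comparison passed (limma adjusted p = 0.523 after genistein and 0.329 after BMP6).

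By role, 2 of 4 tested synthesis enzymes, 2 of 3 desaturases, 1 of 5 elongases, 2 of 6 droplet coat genes and 1 of 2 lipases fell after genistein, and 1 of 8 triglyceride assembly genes rose, against 5.96% lower and 6.11% higher over all tested genes. Median log2 changes ran from -2.30 for the lipases and -1.88 for the desaturases through -1.40 for synthesis, -1.18 for droplet coats, -0.18 for triglyceride assembly and 0.20 for elongases to 0.76 for the acyl-CoA synthetases. With 2 to 8 genes per role, these counts and medians are descriptions of single genes rather than of classes.

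BMP6 was compared with DMSO to set the iron-regulatory ligand beside genistein. Of the 33 members, 0 passed a limma adjusted p of 0.05 in either direction, against 0.837% of all tested genes, and 11 had an unadjusted p under 0.05, against 18.9%. The median log2 change was -0.19 over the members and -0.03 over all tested genes. Both BMP6 libraries lay above the 3 DMSO libraries for 9 members (16.1% of all tested genes): SCD, FADS1, FADS2, ELOVL1, ELOVL5, ELOVL6, GPAM, AGPAT2 and PLIN2. AGPAT2 is counted there, but it was listed at 0 in all DMSO libraries and entered the test only through treated libraries, so its position is not used. Both BMP6 libraries lay below DMSO for 9 others (17.3%): MLXIPL, ACSL3, ACSL5, LPIN1, LPIN3, DGAT1, PLIN3, PLIN5 and CIDEB. With 2 libraries against 3 the exact two-sided permutation test cannot go below p = 0.2.

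The count after BMP6 depended on which BMP6 library was kept. The log2 change of the elongase ELOVL7, whose value in BMP6 2 is a listed 0, was -4.24 without BMP6 1 and 0.00 without BMP6 2. More members passed without BMP6 2 than without BMP6 1. Over all 12661 genes the counts of the same fits differed in the same direction. Whether the members differed more than other genes was not tested. Either fit leaves a single BMP6 library, which is assumed to vary like the libraries of the other groups. The difference between BMP6 1 and BMP6 2 moved with the base composition of the transcript: over the 33 members, its Spearman rho with transcript GC content was -0.83, a description of 2 libraries. The median difference was -1.58 for the 15 members with at least 55% GC and 0.78 for the 8 members under 45%. With libraries corrected for GC content and length, 5 members were lower and 2 higher in BMP6 than in DMSO, against 3.53% and 3.75% of genes. Those lower were MLXIPL, DGAT1 and PLIN5 with the values above, ACSL5 at -1.21 ± 0.26 (limma adjusted p = 0.0362) and CIDEB at -3.48 ± 0.85 (limma adjusted p = 0.0485). Those higher were GPAM and FADS1, the latter at 1.45 ± 0.29 (limma adjusted p = 0.0301).

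**Figure D4:**
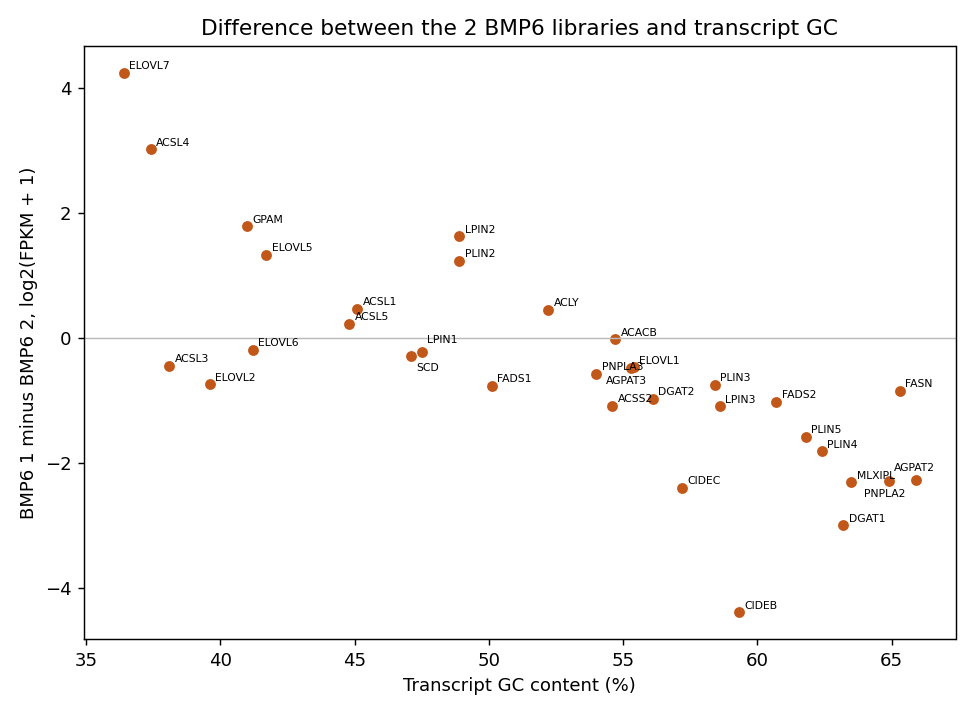
Difference between BMP6 1 and BMP6 2 on the log2(FPKM + 1) scale against the GC content of the transcript in percent, 1 labelled point for each of the 33 tested genes. The GC-poor ACSL4 and GPAM lie above 0, and the GC-rich DGAT1, CIDEB and MLXIPL lie below it, with a Spearman rho of -0.83.

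Genistein and BMP6 were also compared directly, since both comparisons with DMSO share the same 3 control libraries. Of the 33 members, SCD, FADS2, PNPLA3 and PLIN2 were lower in genistein than in BMP6 and ACSL5 was higher, at a limma adjusted p under 0.05, against 0.75% lower and 0.64% higher, 1.39% in all, among all tested genes. The 3 genistein libraries lay below both BMP6 libraries for 13 members (12.6% of all tested genes) and above them for 5 (16.3%). The median log2 difference was -0.60 over the members and 0.12 over all tested genes. The count was 0 without DMSO 2 or without genistein 3, fits that called 58 and 48 genes over all. It was 1 without DMSO 3, genistein 1 or genistein 2 (91, 61 and 96 genes over all). Without DMSO 1 it was 3 (210 genes over all), and with every library 176 genes were called over all. Leaving out a BMP6 library leaves a single one in that group, so those counts are not used here. With the GC and length correction, 9 members were lower and 1 was higher, against 3.36% and 2.66% of genes. MLXIPL, DGAT1, LPIN3, PLIN3, PLIN5 and CIDEB, which were below DMSO in all treated libraries, did not pass between the treatments, with log2 differences of 0.52 ± 0.65, 0.81 ± 0.80, -0.22 ± 0.44, -0.18 ± 0.35, 0.65 ± 0.52 and -1.48 ± 1.13.

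Of a further 80 genes of the pathway with a row in the files, 63 were tested, and 10 fell and 3 rose after genistein, against 5.96% and 6.11% of all tested genes, with a median log2 change of -0.06. FABP1, the liver fatty acid-binding protein, had the smallest p. It was at 8564, 12192 and 11475 FPKM in DMSO, 517, 445 and 306 in genistein and 1403 and 2205 in BMP6, with every treated library below every DMSO library. The log2 change was -4.68 ± 0.41 after genistein (limma adjusted p = 0.00169) and -2.59 ± 0.45 after BMP6 (limma adjusted p = 0.0498), the 1 pathway gene called after BMP6. GPAT3, a glycerol-3-phosphate acyltransferase of the endoplasmic reticulum, was at 10.9, 17.4 and 17.5 FPKM in DMSO, 98.8, 74.4 and 83.2 in genistein and 8.04 and 16.0 in BMP6. It rose after genistein, with a log2 change of 2.43 ± 0.38 (limma adjusted p = 0.00959) and was the 1 pathway gene called between genistein and BMP6 (2.79 ± 0.42, limma adjusted p = 0.022).

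Hepatic lipase, encoded by LIPC, was at 195, 226 and 146 FPKM in DMSO, 53.8, 49.3 and 46.5 in genistein and 104 and 206 in BMP6, with a genistein log2 change of -1.88 (limma adjusted p = 0.015). AGPAT1, another acyltransferase that makes phosphatidic acid, was at 293, 397 and 376 FPKM in DMSO, 167, 132 and 137 in genistein and 312 and 411 in BMP6, with a genistein log2 change of -1.28 (limma adjusted p = 0.0274). FITM1, which promotes droplet budding, was at 53.4, 42.9 and 23.7 FPKM in DMSO, 5.93, 0 and 0 in genistein and 5.38 and 24.6 in BMP6 (limma adjusted p = 0.0197). The FITM1 call rests in part on its 2 listed zeros in genistein. ACSL6 was at 2.96, 4.31 and 6.36 FPKM in DMSO, listed at 0 in the 3 genistein libraries, and at 1.86 and 0 in BMP6. It is counted among the 10 that fell, but it entered the test because of its DMSO values and rests on listed zeros, so its call is not used. Of 14 tested regulators of lipogenesis, 0 fell and 1 rose after genistein, with 5 at an unadjusted p under 0.05, shares near the 6.11% higher and 30% over all tested genes. The 1 was PPARG, the adipogenic nuclear receptor, named after its values were seen, at 36.6, 51.6 and 41.7 FPKM in DMSO and 135, 123 and 78 in genistein, with 74.1 and 76 in BMP6 (log2 change 1.33 ± 0.32, limma adjusted p = 0.0345). With the GC and length correction 6 of the 14 regulators rose and 0 fell after genistein, against 12.6% and 11.9% of genes. After BMP6, 3 rose and 0 fell, against 3.75% and 3.53%. SREBF1, the gene of SREBP1c, also named after its values were seen, was at 21, 15.5 and 28.7 FPKM in DMSO. It was at 61.7, 49.5 and 39.5 in genistein and 35.2 and 129 in BMP6. Its limma adjusted p was 0.159 after genistein and 0.186 after BMP6, and with the correction 0.00462 and 0.0106.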

How the data were processed

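PolyA RNA of 8 HepG2 libraries was analysed as deposited. The authors' files hold 1 FPKM value per gene, with its interval and status, per the file headers. The submitters' processing notes name the build hg18 and the tools Cufflinks 1.0.3, Cuffdiff, TopHat 1.1.0 and Bowtie. Their settings and scaling, and the depth, are not given in the sources used here, and no counts were recovered, so the precision cannot be computed from depth. Groups came from the sample titles.

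The 12661 genes reaching 1 FPKM in 2 or more libraries were put on the log2(FPKM + 1) scale, on which a fold change understates low genes. The 3 groups entered 1 limma fit (limma 3.58.1, R 4.3.3) with an intensity trend (5 residual and 3.22 prior degrees of freedom). Tests were two-sided, p-values were adjusted over those genes (Benjamini-Hochberg), and the threshold was 0.05. Exact permutation tests used SciPy 1.17.1. In simulated data the fit was checked on known changes. Alternatives were the pseudocount, the filter on low values, scaling, the groups fitted, library weights, a replicate block and libraries left out. A lowess correction of each library for transcript GC content and length was chosen after seeing the data. It was fitted to deviations from the mean of all 8 libraries, so it can also remove a treatment difference that tracks GC content or length. Members, lists and tests were chosen with earlier results of these data known. All members are accounted for: those called, their paralogs and the rate-setting enzymes are given in every library, with up to 6 pathway genes by smallest p after genistein and up to 3 in each other comparison. Coordinates are those of the files (hg18), and exons and UTRs are not described. SD is between libraries.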

Additional observations from a re-analysis of the deposited data

How the results depend on the processing

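For genistein against DMSO, 9 members were called, and the count became 14 with median-of-ratios scaling, 15 with quantile normalization, 14 in a fit of only the 2 groups, 20 with array weights (whose estimation did not reach its tolerance), 5 without genistein 3 and BMP6 1 together, 15 with the GC and length correction, and 1 to 14 with 1 library left out. Over all genes, 1527 became 2395 (quantile), 2616 (2 groups), 5383 (array weights), 2358 (without DMSO 1, genistein 2 and BMP6 1 together), 2938 (GC and length) and 244 to 2615 (1 library out). Median-of-ratios scaling moved the median of all genes by -0.10 and gave 1312 lower and 927 higher against 754 and 773.

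For BMP6 against DMSO, 0 members became 1 (pseudocount 10), 1 (genes above 0 in all 8 libraries), 2 (median-of-ratios), 3 (quantile), 1 (without the 3 libraries together), 7 (GC and length) and 0 to 12 (1 library out). Over all genes, 106 became 233 (pseudocount 10), 38 (a 5 FPKM minimum on the mean), 382 (median-of-ratios), 338 (quantile), 13 (2 groups), 8 (array weights), 477 (without the 3 libraries), 3 (without genistein 3 and BMP6 1), 873 (GC and length) and 5 to 1892 (1 library out).

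For genistein against BMP6, 5 members became 2 (pseudocount 0.1), 3 (mean of at least 5 FPKM), 1 (2 groups), 0 (array weights, and without genistein 3 and BMP6 1), 10 (GC and length) and 0 to 4 (1 library out). Over all genes, 176 became 271 (pseudocount 10), 417 (median-of-ratios), 424 (quantile), 81 (2 groups), 38 (array weights), 657 (without the 3 libraries), 1 (without genistein 3 and BMP6 1), 722 (GC and length) and 48 to 540 (1 library out).

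Replicate numbers were not shown to pair libraries: same-numbered DMSO and genistein libraries deviated together at -0.146, -0.0652 and -0.00459. With a replicate block, 2 members (CIDEB and PNPLA3), 0 and 0 were called in the 3 comparisons, and 414, 4 and 7 genes over all. After BMP6, the log2 change of ELOVL7 was -4.32 without the 3 libraries, -4.24 without BMP6 1 and 0.00 without BMP6 2, that of PLIN4 from -1.76 without BMP6 2 to 0.05 without BMP6 1, with 0.05 without genistein 3 and BMP6 1, and 0.09 without the 3 libraries, and that of PNPLA2 became 0.10 without the 3 libraries. With all libraries, none of these 3 genes was called. The cause of these shifts was not tested. Depth is unknown, so no detection limit was set for genes listed at 0.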
